A study of Mus musculus with 8 samples.

Results

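The 7 mouse genes described here are Dppa2, Dppa3, Dppa4, Tcl1, Fgf4, Gbx2 and Lin28a, a group of genes used to mark the naive or ground state of pluripotency. They were chosen by name among the 14861 genes of a table of PRO-seq signal, and all 7 were found there. PRO-seq lets RNA polymerases that are already engaged on a gene add labelled nucleotides to their growing RNA. The signal therefore reads transcription under way and not the amount of mature RNA. The cells were induced pluripotent stem cells of 1 clonal mouse line with the FUCCI2 cell-cycle reporter, kept on irradiated feeder cells with serum, LIF and inhibitors of MEK and GSK3 (2i). Mitotic cells were treated with nocodazole, a microtubule poison, at 200 ng/ml for 6 h and shaken off. The 1 h and 3 h groups had the same treatment and shake-off and were then released into fresh medium. Asynchronous cells had no nocodazole. The labels list 2 libraries for each of these 4 groups, while the table has just 1 combined column for each group, so there is no replicate check on any difference below and no test was possible. In the table the release columns are called early G1 and late G1, which were read as 1 h and 3 h after release from what the names mean. Nocodazole exposure and cell-cycle stage cannot be told apart in a comparison with asynchronous cells, and in these bulk samples fewer cells of a type cannot be told apart from less RNA per cell.

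Naive pluripotent cells hold themselves in an unspecialised state through transcription factors, signals and chromatin proteins that keep differentiation genes poised. Dppa2 and Dppa4 encode partner proteins with a SAP domain that bind chromatin together, keep promoters of developmental genes free of DNA methylation and help to switch on genes of the earliest embryo. Dppa3, also called Stella, encodes a protein that hinders maintenance of DNA methylation through UHRF1. Fgf4 encodes a secreted ligand that can drive ERK signalling in pluripotent cells and is activated by OCT4 and SOX2. The culture used here held an inhibitor of MEK, a kinase of that pathway. Gbx2 encodes a homeobox transcription factor that acts downstream of LIF and STAT3. Tcl1 encodes a cofactor of the kinase AKT. Lin28a encodes an RNA-binding protein that blocks maturation of the let-7 microRNAs, and it is also active in primed cells, so it is not a marker of the ground state alone.

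The labelled cell type was checked with 5 pluripotency markers, Pou5f1, Sox2, Nanog, Esrrb and Zfp42. All 5 were in the table, and none was below 61.0 in any column other than mitosis. Their summed signal was 32.1 in mitosis, 780 at early G1, 741 at late G1 and 709 in asynchronous cells. Of 20 fibroblast feeder markers, 11 were in the table, with a summed signal of 5.05 in mitosis, 151 at early G1, 143 at late G1 and 95.8 in asynchronous cells. In mitosis 2 of the 11 were listed at 0. Fn1, the fibronectin gene, made up much of this sum, with 3.26 in mitosis, 106 at early G1, 61.3 at late G1 and 53.4 in asynchronous cells. Without Fn1, left out after the values were seen, the sum was 1.79 in mitosis, 45.04 at early G1, 81.4 at late G1 and 42.4 in asynchronous cells. The other feeder markers together were thus near the asynchronous level in early G1 and above it in late G1, and the part of feeder cells in the values below was not tested. Column totals were 16863 in mitosis, 361203 at early G1, 326086 at late G1 and 309144 in asynchronous cells.

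The 3 promoters below belong to genes that the authors' table puts in 3 different temporal classes, Fgf4 in Early_Plateau, Gbx2 in Early_Spike and Tcl1 in Gradual, and the start site of each in the table lies within 3 bp of the RefSeq start site. Each is the RefSeq window of 300 bases on GRCm38.p6, from 250 before the start site to 50 from it on, written 5′ to 3′ on the strand of the gene, with matches to the motifs searched in capitals.
Fgf4 (chr7:144861136-144861435, plus strand): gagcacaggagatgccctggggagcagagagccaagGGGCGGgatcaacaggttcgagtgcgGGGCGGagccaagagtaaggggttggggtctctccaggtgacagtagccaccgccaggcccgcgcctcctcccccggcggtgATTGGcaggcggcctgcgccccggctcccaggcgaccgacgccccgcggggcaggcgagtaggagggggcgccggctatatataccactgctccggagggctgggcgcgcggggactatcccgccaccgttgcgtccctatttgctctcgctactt
Gbx2 (chr1:89931127-89931426, minus strand): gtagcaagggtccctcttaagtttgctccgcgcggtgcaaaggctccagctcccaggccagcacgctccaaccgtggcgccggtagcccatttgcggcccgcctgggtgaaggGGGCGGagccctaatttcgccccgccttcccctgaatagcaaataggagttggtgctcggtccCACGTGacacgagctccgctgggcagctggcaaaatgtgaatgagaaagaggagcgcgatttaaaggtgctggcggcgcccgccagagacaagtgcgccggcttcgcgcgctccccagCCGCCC
Tcl1 (chr12:105222688-105222987, minus strand): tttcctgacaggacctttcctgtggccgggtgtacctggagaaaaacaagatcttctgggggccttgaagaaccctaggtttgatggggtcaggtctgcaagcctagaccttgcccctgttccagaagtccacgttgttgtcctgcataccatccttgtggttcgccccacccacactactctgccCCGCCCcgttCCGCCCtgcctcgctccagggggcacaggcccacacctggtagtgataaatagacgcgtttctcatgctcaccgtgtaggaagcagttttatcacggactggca
Both strands were searched for the octamer ATGCAAAT, the SOX motifs ACAATGG and ACAAAG, the ESRRB motif TCAAGGTCA and the AAGGTCA it contains, the KLF motifs GGGTGTGG and GGGCGTGG, the TATA motif TATAAA, the CCAAT box CCAAT, the GC box GGGCGG, the E-box CACGTG, the STAT motif TTCCNGGAA and the ETS motif CCGGAAG. The Fgf4 window held 2 GC boxes and a CCAAT box on the opposite strand. The Gbx2 window held an E-box and 2 GC boxes, the second of them on the opposite strand and 44 bp downstream of the start site. The Tcl1 window held 2 GC boxes, both on the opposite strand. A GC box is found in 35.7% of the 32851 promoter windows in the RefSeq set, a CCAAT box in 37.4% and the E-box in 7.15%. None of the exact strings searched for OCT, SOX, ESRRB, KLF, STAT, TATA or ETS was in these 3 windows. Other forms of these motifs were not searched. The Fgf4 window does hold a run resembling the TATA motif shortly upstream of the start site, so the absence of a TATA element was not shown. The octamer is in 1.74% of all windows, ACAATGG in 3.66%, ACAAAG in 18.7%, TCAAGGTCA in 0.423%, AAGGTCA in 4.72%, GGGTGTGG in 3.56%, GGGCGTGG in 5.33%, TATAAA in 13.6%, TTCCNGGAA in 1.15% and CCGGAAG in 8.86%. The windows of Fgf4 and Gbx2 held 28 and 27 CpG dinucleotides and that of Tcl1 held 11, beside a median of 7 over all windows. GC content was 69.7% for Fgf4, 64.7% for Gbx2 and 56.7% for Tcl1.

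The other 4 genes are not shown in this way. The RefSeq window of Lin28a lies 6430 bp upstream of the start site that the table uses, and Dppa2, Dppa3 and Dppa4 were not matched in the promoter set. Start sites of the table are on GRCm38 at chromosome 16, 48283787 (plus strand) for Dppa4 and 48303908 (plus strand) for Dppa2, chromosome 6, 122626753 (plus strand) for Dppa3, chromosome 7, 144861386 (plus strand) for Fgf4, chromosome 1, 89931179 (minus strand) for Gbx2, chromosome 12, 105222737 (minus strand) for Tcl1 and chromosome 4, 134012386 (minus strand) for Lin28a. The table's start site of Dppa2 lies 6366 bp upstream of the RefSeq gene, and that of Lin28a lies 6810 bp inside it. The sources used here do not say how signal was assigned around a start site, so the values of these 2 genes may stand for a transcript other than the RefSeq gene. RefSeq spans run from 3215 bp for Gbx2 to 15867 bp for Lin28a, and no other RefSeq gene overlaps any of the 7 spans.

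**Figure D1:**
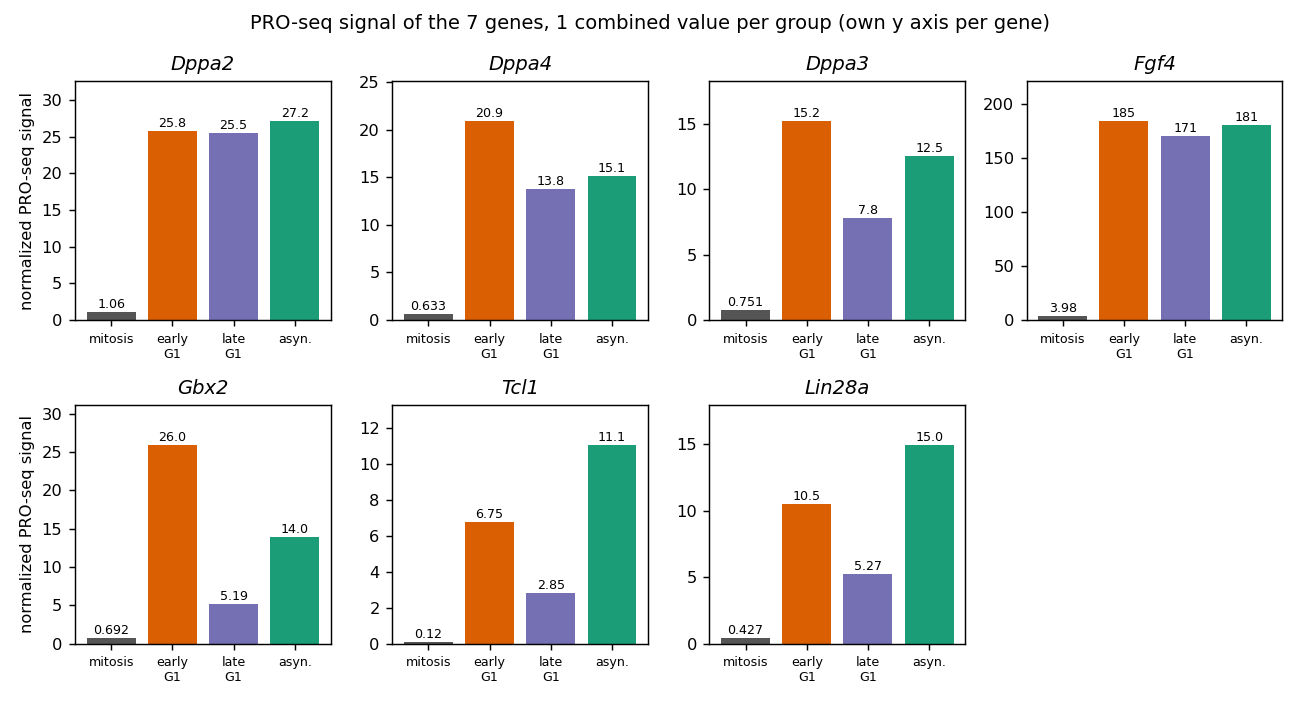
Normalized PRO-seq signal (y axis, own scale per gene, from 0) of each of the 7 genes in mitosis, early G1, late G1 and asynchronous cells (x axis), 1 combined value per group and so no error bars. On the deposited scale all 7 are lowest in mitosis, 4 are highest in early G1 and 3 in asynchronous cells; rescaled columns change some of these orders, as the text gives.

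On the deposited scale transcription of all 7 genes was lowest in mitosis, an order that rescaling the columns to equal medians or quantiles undoes, under at least 1 of these, for all but Fgf4. In all 7 the late G1 value was below both the early G1 and the asynchronous value, except that after such rescaling Dppa2 and Fgf4 were slightly above early G1 and, with quantiles, Fgf4 was slightly above asynchronous cells. On the deposited scale 25.2% of 14631 genes were below both values in late G1, and 53.8% of 14699 were below early G1 alone. The differences between the genes lay in how far early G1 reached and how much of that level was left in late G1. Dppa2 and Fgf4 came back to about the asynchronous level and stayed there. Dppa4 passed that level in early G1 and lay just below it in late G1, and Dppa3 did so with a lower late G1 value, though its early G1 excess was lost under both rescalings. Gbx2 passed it furthest and was then far below it, and Tcl1 and Lin28a did not reach it in early G1 and were lower still in late G1.

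The partner genes Dppa2 and Dppa4 differed in early G1. Dppa2 had a signal of 1.06 in mitosis, 25.8 at early G1, 25.5 at late G1 and 27.2 in asynchronous cells. Mitotic signal was 3.91% of the asynchronous signal, early G1 signal 94.9% and late G1 signal 93.7%. Its 3 values outside mitosis were nearly level. Dppa4 had 0.633 in mitosis, 20.9 at early G1, 13.8 at late G1 and 15.1 in asynchronous cells, which is 4.18%, 138% and 91.4% of the asynchronous level at the first 3 stages. The partners are neighbours on chromosome 16, in the same direction, with start sites 20121 bp apart, and the table's Dppa2 start site lies 9616 bp past the RefSeq end of Dppa4. No other gene of the table starts within 100 kb of either. Over the 4 columns, mitosis included, their profiles lay closer to each other than to any other of the 7. The measure was the root mean square difference of log2(signal + 0.1), after the mean of each gene over the 4 columns was removed. It was 0.23 between Dppa2 and Dppa4, while the other pairs lay between 0.31 (Tcl1 and Lin28a) and 1.01 (Fgf4 and Gbx2). Distances between the 7 without the mitotic column were not computed. Outside mitosis the nearly level course of Dppa2 resembled that of Fgf4, at 102% in early G1 and 94.3% in late G1, more than that of Dppa4.

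Dppa3 had 0.751 in mitosis, 15.2 at early G1, 7.80 at late G1 and 12.5 in asynchronous cells. It kept 5.99% of its asynchronous signal in mitosis, a larger share than any of the other 6, and stood at 121% in early G1 and 62.1% in late G1. Late G1 signal was 1.94-fold below early G1, just inside the 2-fold threshold. Fgf4 had 3.98 in mitosis, 185 at early G1, 171 at late G1 and 181 in asynchronous cells. These are 2.20%, 102% and 94.3% of the asynchronous level, so after mitosis this ligand gene varied little.

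Gbx2 had 0.692 in mitosis, 26.0 at early G1, 5.19 at late G1 and 14.0 in asynchronous cells. It stood at 4.95% of the asynchronous level in mitosis, 186% in early G1 and 37.2% in late G1, the widest swing after mitosis among the 7. Tcl1 had 0.120 in mitosis, 6.75 at early G1, 2.85 at late G1 and 11.1 in asynchronous cells, or 1.08%, 60.9% and 25.7% of the asynchronous level. Its mitotic value is close to the 0.1 that was added before taking log ratios, so its folds against mitosis depend on that choice. Lin28a had 0.427 in mitosis, 10.5 at early G1, 5.27 at late G1 and 15.0 in asynchronous cells, or 2.85%, 70.4% and 35.2%. Tcl1 and Lin28a shared the order mitosis, late G1, early G1, asynchronous cells, from low to high. Dppa2 had that order too, with its upper 3 values within a few percent of each other. Dppa3, Dppa4, Fgf4 and Gbx2 shared the order mitosis, late G1, asynchronous cells, early G1. Without replicate values no neighbours in these orders can be said to differ beyond their spread.

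**Figure D2:**
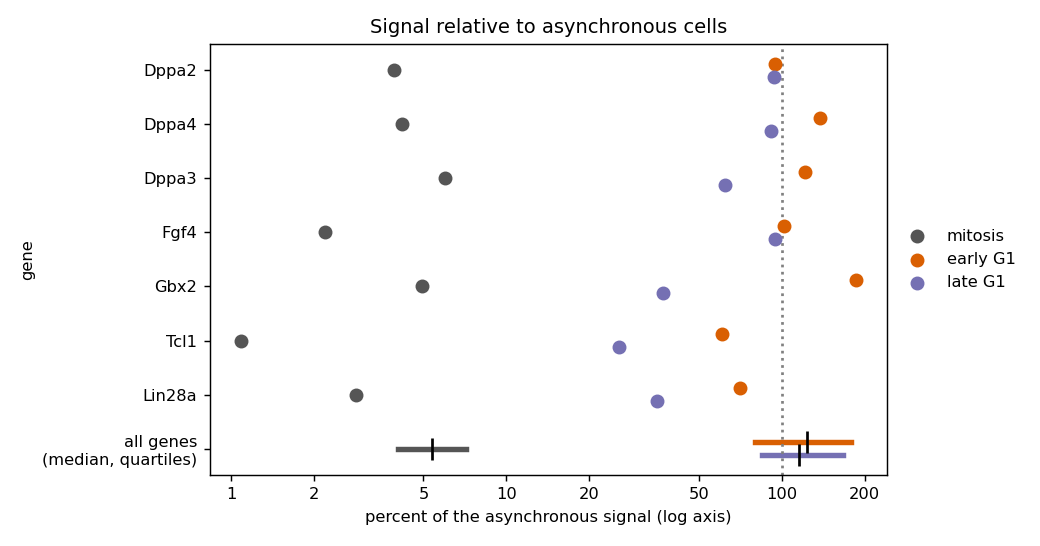
Signal in mitosis, early G1 and late G1 as a percent of the asynchronous signal (x axis, log scale) for each of the 7 genes (y axis), with the median (tick) and quartiles (bar) of all genes in the last row. In late G1 Dppa3, Gbx2, Lin28a and Tcl1 stand at 62.1%, 37.2%, 35.2% and 25.7%, below the lower quartile of 85.0% of all genes.

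Mitotic cells were first set against asynchronous cells, a comparison that asks how much transcription remained. All 7 genes were at least 2-fold lower in mitosis, as were 99.1% of the 14444 genes compared, so the call itself says nothing about these genes, and none was at least 2-fold higher, beside 0.0208% of all genes. Their median log2 ratio was -4.55, against -3.89 for all genes, and none of the 7 lay above the median gene. Tcl1 was 50.8-fold lower in mitosis (log2 ratio -5.67, 124 of all genes lower still) and Fgf4 44.4-fold lower (-5.47, 204 genes lower still). The Tcl1 ratio was -6.31 with a pseudocount of 0.02 and -4.22 with 0.5, where Fgf4 at -5.34 was the lower of the pair. Dppa3, at -3.89, sat at the median gene, and its side of it depended on the pseudocount. It was above the median gene with 0.02 (-4.03 against -4.14) and below it with 0.5 (-3.38 against -3.23). Without a pseudocount its 5.99% of the asynchronous signal was above the median of 5.36%. With all columns scaled to equal medians the general loss disappears by construction, and 2 of the 7 were at least 2-fold lower in mitosis.

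Early G1 was then set against mitosis. The 2-fold threshold was passed upward by all 7 genes in early G1, and by 99.3% of 14456 genes, and none was at least 2-fold lower, beside 0.00692%. Fgf4 was 45.3-fold higher in early G1 (log2 ratio 5.50), with 256 genes above it. Tcl1 was 31.1-fold higher (4.96), but its log2 ratio was 5.60 with a pseudocount of 0.02 and 3.55 with 0.5, against 5.53 and 5.37 for Fgf4, and its ratio without a pseudocount was 56.3, against 46.4 for Fgf4. With equal medians and with quantile normalization Tcl1 was also above Fgf4, so the order of these 2 genes is not settled. Gbx2 was 32.9-fold higher, Dppa4 28.7-fold, Dppa2 22.3-fold, Lin28a 20.2-fold and Dppa3 18.0-fold, beside 18.5-fold for the median gene. Late G1 against mitosis gave at least 2-fold higher values for all 7 too, beside 99.7% of 14467 genes, from 6.68-fold for Gbx2 to 41.9-fold for Fgf4, with 17.3-fold for the median gene. The 3 comparisons share the mitotic column, and with equal medians the first of these 2 counts was 1 of 7 and the second 0 of 7.

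Early G1 against asynchronous cells asks whether the first release already restored the cycling level. None of the 7 was at least 2-fold higher in early G1 and none at least 2-fold lower, beside 17.7% and 9.53% of 14661 genes. The ratios ran from 1.63-fold lower for Tcl1 (log2 ratio -0.71) to 1.85-fold higher for Gbx2 (0.89). Gbx2 lay at percentile 78.1 of all genes, Dppa4 at 57.8, Dppa3 at 48.6, Fgf4 at 37.5, Dppa2 at 33.3, Lin28a at 19.1 and Tcl1 at 14.5. Over all genes 2596 were higher and 1397 lower at this threshold, which turned to 1268 and 2169 with equal medians and to 1364 and 1638 with quantile normalization. With equal medians Tcl1 passed the threshold at -1.02, and the small positive ratios of Dppa3 (0.28) and Fgf4 (0.03) became negative, that of Dppa3 with quantile normalization too.

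The 7 genes differed widely between late and early G1. Gbx2 was 4.93-fold lower in late G1 than in early G1 (log2 ratio -2.30), and only 73 of 14699 genes had a lower ratio. Tcl1 was 2.32-fold lower (-1.22). These 2 of 7 passed the 2-fold threshold downward, beside 7.52% of all genes, and none passed it upward, beside 15.1%. Lin28a at 1.98-fold lower (-0.99) and Dppa3 at 1.94-fold lower (-0.96) lay just inside the threshold, and Tcl1 was the nearest past it. Dppa4 was 1.51-fold lower, Fgf4 1.08-fold lower and Dppa2 1.01-fold lower. The median log2 ratio was -0.96 for the 7 and -0.08 for all genes. In the same comparison 6 of the 11 feeder markers passed the threshold upward and 0 downward, with a median log2 ratio of 1.02, and with quantile normalization 3 were higher and 1 lower. The part of these markers in the ratios of the 7 genes was not tested. Over all genes 2226 were higher and 1106 lower, against 2542 and 755 with equal medians and 1583 and 1212 with quantile normalization. The 5 genes other than Dppa2 and Fgf4 kept a negative ratio under these and the other alternatives, while those of Dppa2 and Fgf4 became positive (at most 0.21 and 0.02). Quantile normalization put Lin28a past the threshold at -1.04.

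**Figure D3:**
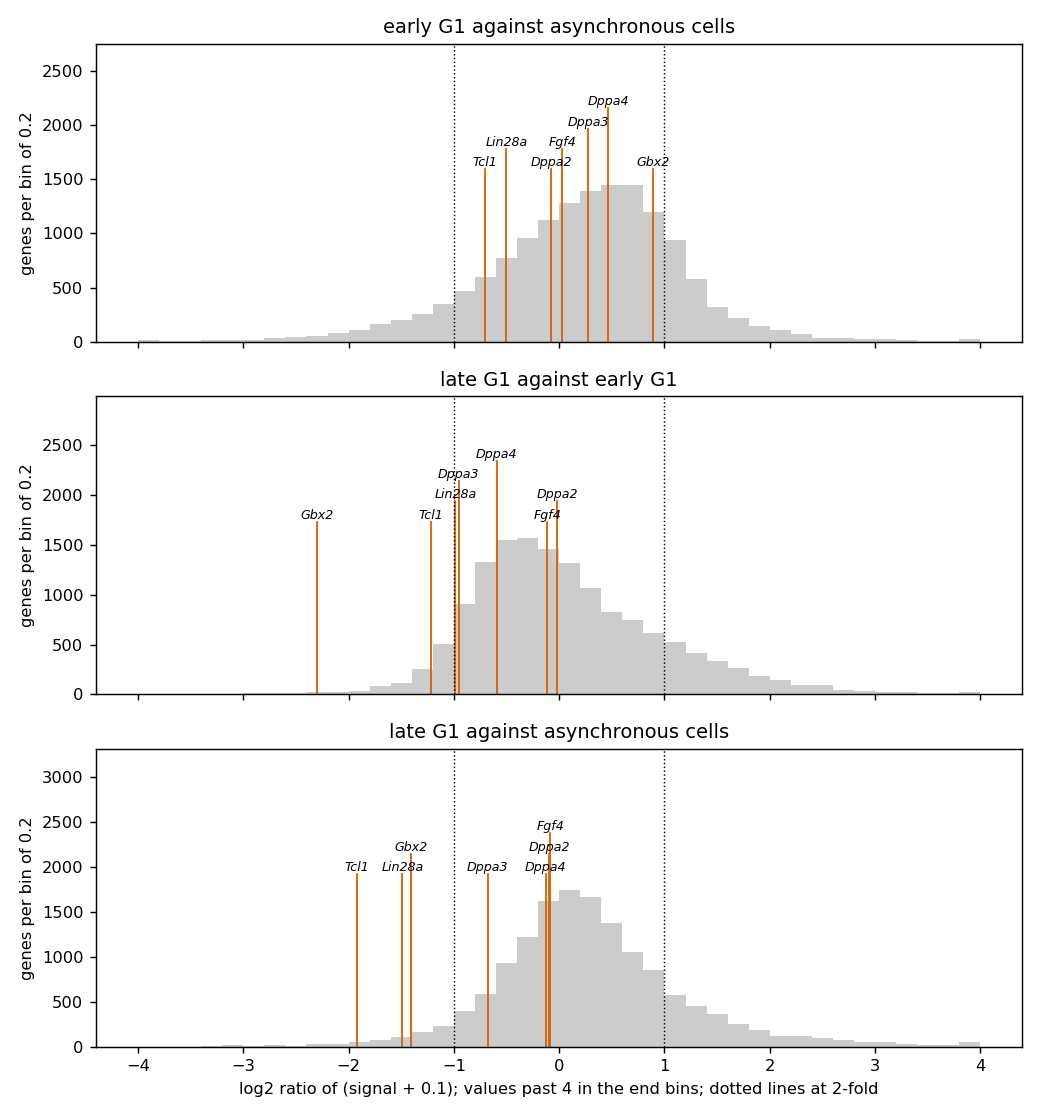
Number of genes (y axis) per bin of 0.2 in the log2 ratio of (signal + 0.1) (x axis) for early G1 against asynchronous cells, late G1 against early G1 and late G1 against asynchronous cells, with the 7 genes as labelled lines and dotted lines at 2-fold. Gbx2 lies at 0.89 in the first panel and at -2.30 and -1.41 in the others, with 73 genes lower in the second, while Dppa2 and Fgf4 lie near 0 in all 3.

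Late G1 against asynchronous cells showed where the genes stood after the longer release. Tcl1 was 3.79-fold lower in late G1 (log2 ratio -1.92, 134 of 14695 genes lower still), Lin28a 2.81-fold lower (-1.49, 296 genes) and Gbx2 2.66-fold lower (-1.41, 339 genes). These 3 of 7 passed the threshold, beside 5.14% of all genes, and none was at least 2-fold higher, beside 16.9%. Dppa3 was 1.60-fold lower, Dppa4 1.09-fold, Dppa2 1.07-fold and Fgf4 1.06-fold. The median log2 ratio of the 7 was -0.68, against 0.21 for all genes, and none of the 7 lay above the median gene. Of all genes, 37.6% were below their asynchronous value in late G1, and all 7 were. Over all genes 2483 were higher and 755 lower, which turned to 1890 and 1157 with equal medians and to 1625 and 1472 with quantile normalization. Tcl1, Lin28a and Gbx2 passed the threshold under all 6 alternatives tried, and Fgf4 turned to 0.06 above the asynchronous level with quantile normalization. The median gene was then at -0.04, so Fgf4 lay above it. The comparisons share columns, so the late G1 value of a gene enters each of the late G1 ratios above.

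The sources used here do not describe how the temporal classes of the authors' table were made, so the following only says where the genes sit in them. Early_Plateau holds 3910 genes, 26.3% of the table, among them Dppa2, Dppa3, Dppa4 and Fgf4. In late G1 the median Early_Plateau gene stood at 93.4% of its asynchronous level, close to Fgf4 at 94.3%, Dppa2 at 93.7% and Dppa4 at 91.4%, while Dppa3 at 62.1% was above only 361 of 3907 class members compared. Early_Spike holds 4991 genes, with a class median of 191% in early G1 and 127% in late G1. Gbx2 at 186% was near the first median, but its 37.2% in late G1 had only 15 of 4945 class members below it. Gradual holds 2296 genes, with class medians of 49.5% in early G1 and 65.0% in late G1 among genes compared. Tcl1 and Lin28a ran the other way within this class, at 60.9% and 70.4% in early G1 and 25.7% and 35.2% in late G1. None of the 7 is in Transient. A course above the asynchronous level in early G1 and at least 2-fold below it in late G1, as Gbx2 had, was seen in 82 of 14631 genes (0.560%). This course was not set in the design and was shaped on the Gbx2 values, so the count only describes it. No count after rescaling the columns is given.

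Genes with the most alike course were taken from the whole table by the smallest root mean square difference of log2(signal + 0.1) over the 4 columns, after removing each gene's mean, among genes with a mean signal of at least 2.5. They describe the shape of 4 values and nothing more. For Gbx2 the nearest were Relch (difference 0.05; 1.96 in mitosis, 72.8 at early G1, 14.1 at late G1 and 39.6 in asynchronous cells), Axin2 (0.06) and Fbxl8 (0.14). For Tcl1 they were Prr3 (0.10), Nkiras2 (0.15) and Sars (0.17). Over the 4 columns Prr3 lay further from Tcl1 than the nearest gene did from each of the other 6. That did not hold without the mitotic column, where the Tcl1 value is close to the added 0.1. The nearest gene was then at 0.02 for Tcl1 and at 0.03 for Gbx2 and for Lin28a. For Lin28a, Galr3 (0.05) and Klf13 (0.08) were among the nearest 3. For Dppa2 they were Samd11, Srf and Trmt10b (each 0.03), for Dppa4 Anapc1 and Xpo5 (each 0.01) and Zfp715 (0.02), and for Dppa3 Arf5 (0.03), Taf9b (0.04) and Zmym5 (0.05). For Fgf4 they were Tbc1d13 (0.04), Spr (0.04) and D6Wsu163e (0.05), the last listed at 0 in mitosis. Without the mitotic column only Relch and Axin2 stayed among the nearest 3, both for Gbx2.

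The neighbours described here, which start within 100 kb, did not follow the 7 genes as a block. Dppa3 lies in the region of Nanog, the core pluripotency factor gene 80.8 kb downstream, and of Gdf3, a TGF-beta family ligand gene 16.9 kb upstream on the other strand. In late G1 Nanog stood at 87.2% and Gdf3 at 88.9% of the asynchronous level, beside 62.1% for Dppa3. Apobec1, which encodes a cytidine deaminase, had 31.0 at early G1, 40.5 at late G1 and 15.4 in asynchronous cells, and so stayed above the asynchronous level.

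Around Fgf4 the 4 neighbours went different ways. Fgf3, a further FGF ligand gene 22.8 kb upstream, had 3.94 at early G1, 27.5 at late G1 and 12.5 in asynchronous cells. Fgf15, 35.1 kb downstream, had 1.25, 4.17 and 1.19 at the same stages, and was listed at 0 in mitosis. Both thus had their highest value in late G1, where Fgf4 was at 94.3% of its asynchronous level. Ccnd1, the cyclin D1 gene 78.5 kb downstream, stood at 58.8% in early G1 and 35.1% in late G1, and the gene listed as LTO1 at 88.8% and 63.9%.

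Lin28a had 5 neighbours. Dhdds, an enzyme gene of dolichol synthesis whose start lies 11.5 kb downstream on the same strand, stood at 105% in early G1 and 110% in late G1, beside 70.4% and 35.2% for Lin28a. Hmgn2, a nucleosome-binding protein gene, stood at 87.1% and 59.6%, and the remaining 3 (Crybg2, Cd52 and Ubxn11) between 58.1% and 80.9%. Gbx2 had 1 neighbour, Asb18, with 0.781 at early G1, 3.29 at late G1 and 1.43 in asynchronous cells, the opposite direction of Gbx2 between early and late G1. Tcl1 had 1 neighbour, Tcl1b2 of the same gene family, with 0.0874 in mitosis, 0.277 at early G1 and 1.06 in asynchronous cells, and it was listed at 0 in late G1.

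**Figure D4:**
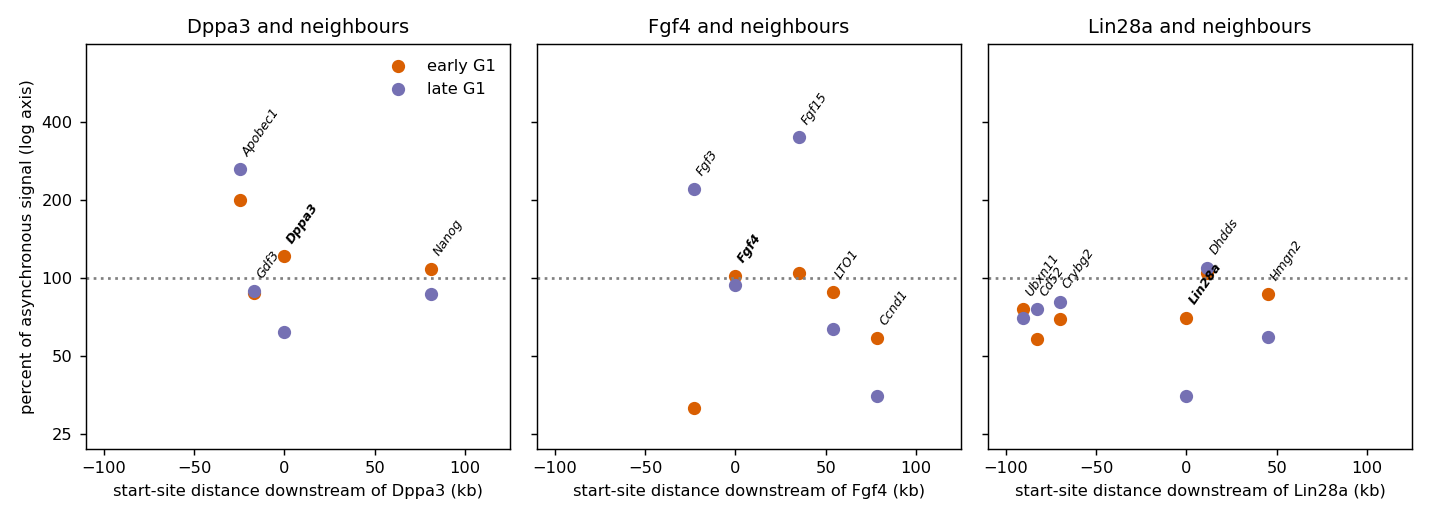
Percent of the asynchronous signal (y axis, log scale) in early G1 and late G1 for Dppa3, Fgf4, Lin28a and the described genes that start within 100 kb of each, by distance of start sites in kb (x axis, positive downstream in the direction of the named gene). In late G1 Dppa3 (62.1%) and Lin28a (35.2%) are the lowest late G1 points of their panels, and Fgf4 (94.3%) lies between Fgf3 (221%) and Ccnd1 (35.1%).

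The genes around the 7 in their pathways were counted in lists of related genes with the same 2-fold threshold, against the same backgrounds of 17.7% higher and 9.53% lower for early G1 and 16.9% higher and 5.14% lower for late G1, each against asynchronous cells. Of 29 other ground-state and naive pluripotency genes, 3 passed the threshold upward and 1 downward in early G1, and 1 upward and 0 downward in late G1. Their median log2 ratio in late G1 was 0.02, beside -0.68 for the 7 genes and 0.21 for all genes. Prdm14, a regulator that represses differentiation genes, had 9.29 at early G1, 32.0 at late G1 and 24.4 in asynchronous cells. Nr5a2, a nuclear receptor gene, had 33.2, 14.7 and 14.0, Tfcp2l1, a transcription factor gene downstream of LIF, 95.5, 60.0 and 40.6, and Jam2, a junction protein gene, 93.6, 89.7 and 42.4. With equal medians the early G1 counts became 0 higher and 4 lower.

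For the LIF and STAT3 list around Gbx2, 4 of 16 genes passed the threshold upward in early G1 and 0 downward, and 1 was higher and 1 lower in late G1. The receptor genes Lifr (32.0 at early G1, 20.4 at late G1 and 13.7 in asynchronous cells) and Il6st (24.7, 10.5 and 10.2) were higher in early G1. Pim1, a kinase gene induced by STAT3, had 72.9, 30.4 and 74.0 and was the gene at least 2-fold lower in late G1. For the FGF and RAS-ERK list around Fgf4, 7 of 29 genes were higher and 2 lower in early G1, and 4 higher and 0 lower in late G1. Fgf8 had 3.76, 0.481 and 0.415 in early G1, late G1 and asynchronous cells, and Fgf17 had 4.95, 7.55 and 14.8, so the ligand genes did not share 1 course.

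For the AKT list around Tcl1, 9 of 22 genes were higher and 0 lower in early G1, and 3 higher and 0 lower in late G1. Akt1 had 93.0, 35.6 and 13.8 in early G1, late G1 and asynchronous cells and was listed at 0 in mitosis, and Foxo3, a transcription factor gene restrained by AKT, had 69.3, 51.0 and 21.0. Foxo1 (22.2, 12.1 and 7.49) and Gsk3b (33.1, 20.7 and 11.2) were also higher in early G1. The median of this list lay 0.49 above the median gene in early G1 on the log2 scale and 0.11 above it in late G1, where Tcl1 itself had a log2 ratio of -1.92. For the let-7 list around Lin28a, 5 of 21 genes were higher and 0 lower in early G1, and 1 higher and 1 lower in late G1. Tut4 (13.5, 9.14 and 5.54) and Tut7 (24.8, 19.4 and 10.3), which encode the uridylyl transferases that act with LIN28A on let-7 precursors, and Drosha (29.3, 13.3 and 12.5), which encodes the nuclear microRNA-processing enzyme, were higher in early G1. Hmga1, a chromatin protein gene, was the gene at least 2-fold lower in late G1, with 31.9, 18.3 and 55.4. Lin28b, the paralogue of Lin28a, had 2.85, 1.87 and 2.20 and was within 2-fold at both times.

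For the DNA methylation list around Dppa3, 0 of 12 genes were higher and 1 lower in early G1, and none passed the threshold in late G1. The lower one was Dnmt3a, a methyltransferase gene (3.19, 3.93 and 6.91), and its relative Dnmt3b had 7.80, 8.46 and 12.3. Tdg, a DNA glycosylase gene, had log2 ratios of 0.73 in early G1 and 0.18 in late G1, and Xpo1, the nuclear export receptor gene, had 74.5, 37.3 and 44.4. Uhrf1, whose product DPPA3 hinders, had 36.8, 30.8 and 43.1. Of the 19 early-embryo genes listed around Dppa2 and Dppa4 only Zscan4d was in the table, with 1.32, 1.74 and 1.47. With equal medians the early G1 counts of higher and lower genes became 5 and 1 for AKT, 2 and 3 for FGF and RAS-ERK, 0 and 1 for LIF and STAT3 and 0 and 4 for let-7. Of the 11 feeder markers 3 were higher and 3 lower in early G1, and 4 higher and 1 lower in late G1. Snai2 (1.02, 5.64 and 0.727) and Pdgfra (2.48, 6.42 and 0.880) were highest in late G1, Twist1 had 5.91, 7.90 and 1.58, and Thy1 was highest in asynchronous cells (5.17).

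**Figure D5:**
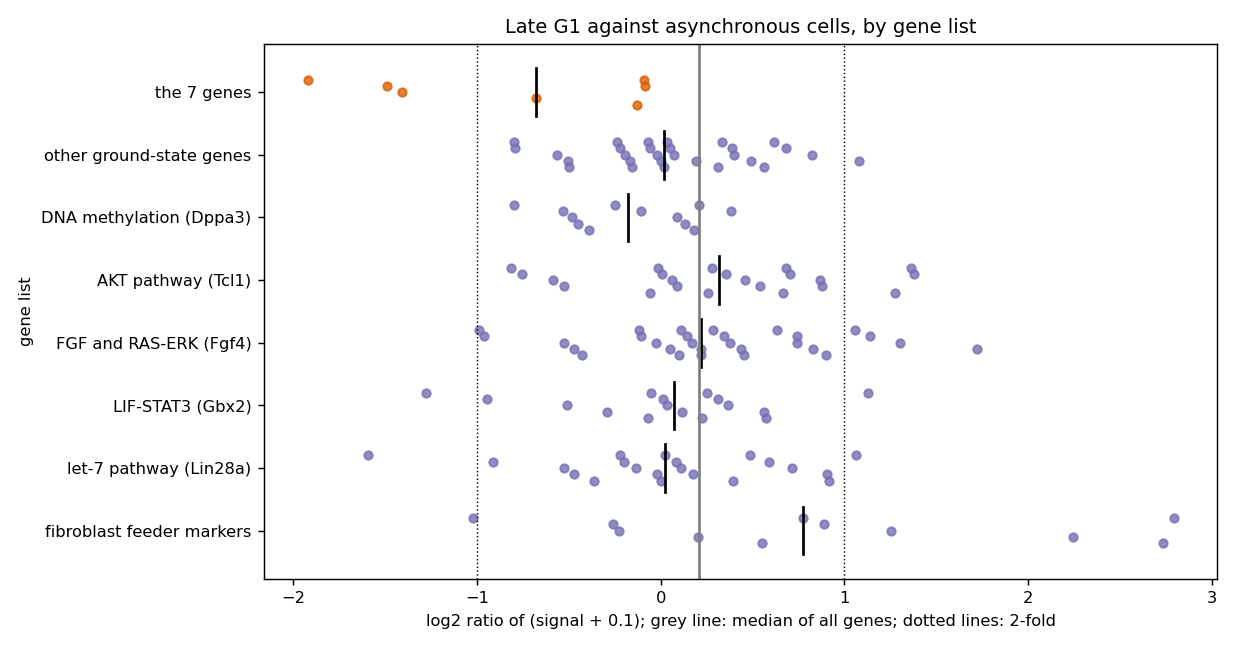
Log2 ratio of (signal + 0.1) in late G1 against asynchronous cells (x axis) for the 7 genes and each listed gene, by list (y axis), with list medians as black ticks, the median of all genes as a grey line and dotted lines at 2-fold. The median of the 7 genes is -0.68, and those of the lists run from -0.18 (DNA methylation) to 0.77 (feeder markers).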

How the data were processed

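The authors deposited a PRO-seq signal for 14861 genes, with 1 column for each group of 2 libraries per the file headers. They named the table normalized expression; the way libraries were combined and scaled was not given in the sources used here. A temporal class, another text column, was deposited beside it. The submitters' processing notes name cutadapt, Bowtie2, Picard and SAMtools on GRCm38 and mm10, with no versions. Depth is unknown, so no interval or floor is given.

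The design allowed for limma on library columns. With 1 column per group no test was possible. Log2 ratios of (signal + 0.1) were computed over genes with a mean signal of at least 0.5 (14814 genes, all 7 members among them), leaving out genes listed at exactly 0 in a column used (431 have such a value). Percents of asynchronous signal carry no pseudocount. The first coordinate column was used as the start site, since it equalled the RefSeq 5′ end at 1810 genes and the second column at 84. Promoters are RefSeq's, on GRCm38.p6. Members and lists were chosen with earlier results of these data known. Named list genes are up to 4 per list with the largest ratio against asynchronous cells in either release. For each member the 3 genes most alike and all neighbours within 100 kb were to be named; 2 of these genes are not reported here. Other names, such as Lin28b and Uhrf1, were added after their values were seen. Python 3.11.15 with numpy 2.4.6 and pandas 2.3.3 was used, and the ratio step was checked on a simulated table. The alternatives tried were other pseudocounts, other filters and 2 rescalings of the columns.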

Additional observations from a re-analysis of the deposited data

How the results depend on the processing

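No paired analysis was possible because the table holds 1 combined column per group, and for the same reason no replicate could be left out. Alternatives were pseudocounts of 0.02 and 0.5, no filter, a minimum mean of 2.5, equal column medians and quantile normalization. Counts of the 7 genes past 2-fold did not change with the first 4. Of 252 ratios of the 7 genes under alternatives, 231 kept their sign. A change of filter cannot alter a ratio of these genes, so part of the 252 could not move. All 21 changes of sign came under the 2 rescalings.

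With equal medians the counts became 2 lower in mitosis than in asynchronous cells, 1 higher at early G1 than in mitosis, 1 lower in early G1 than in asynchronous cells, and 0 higher and 2 lower in late G1 than in mitosis. Quantile normalization gave 2 lower in mitosis than in asynchronous cells and 2 higher at early G1 than in mitosis. For late G1 it gave 1 higher and 2 lower than in mitosis, and 3 lower than in early G1, with Lin28a added. Called log2 ratios changed sign in comparisons with mitosis, where both rescalings remove the general difference by construction. With equal medians, Dppa3 came to 0.21 for mitosis against asynchronous cells and -0.25 for early G1 against mitosis. For late G1 against mitosis, Dppa3 came to -1.09, Dppa4 to -0.03 (-0.026), Gbx2 to -1.54 and Lin28a to -0.83. With quantile normalization, Dppa3 came to 0.18 for mitosis against asynchronous cells, and for early G1 against mitosis Dppa2 came to -0.02 (-0.018) and Dppa3 to -0.28. For late G1 against mitosis, Dppa3 came to -1.15, Tcl1 to -0.20, Gbx2 to -1.70 and Lin28a to -0.99. Small mitotic values and unknown depth limit all ratios to mitosis.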
